A study of Homo sapiens with 6 samples.

Results

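The genes described here are the regulatory core of the ATF4 and CHOP stress response, 10 genes chosen by name from the 16670 genes of the expression table. They are 6 transcription factors of the bZIP family (ATF4, DDIT3, ATF3, ATF5, CEBPG and CEBPB) and 4 feedback genes or effectors (TRIB3, PPP1R15A, CHAC1 and NUPR1). DDIT3 is the gene that encodes CHOP. All 10 had a row in the table, and all 10 were among the 13088 genes that were abundant enough to be tested. These genes, and the related gene lists given later, were chosen with earlier results of these data known.

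RNA was sequenced from A549, an established cell line of a human non-small cell lung cancer. Every culture had first been made senescent by 1 week of alisertib, which blocks Aurora A, a kinase of mitosis. The salinomycin group then received 2.5 µM salinomycin, a potassium-carrying ionophore, for 48 h, and the untreated group received no salinomycin. Each group held 3 libraries that the labels call biological replicates, and cells without alisertib were not analysed here, so each value compares 1 senescent state with another.

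The integrated stress response works through the translation factor eIF2. Kinases that sense stress phosphorylate eIF2, which lowers the making of most proteins but raises translation of the ATF4 message, whose upstream reading frames otherwise hold it back. ATF4 then pairs with C/EBP proteins and switches on genes for amino acid supply, and with CHOP it switches on genes of feedback and cell death. ATF4 protein can therefore change with little change in its transcript, and transcripts are all that was measured here. In bulk RNA a gene's level in each cell and the number of cells that express it cannot be told apart.

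Regulation by ATF4 runs through a short DNA element, and the core genes whose own promoters hold it are shown first. The C/EBP-ATF response element (CARE) was searched as TGATGNAAN on both strands of windows from 250 bases before to 50 bases after the gene start. RefSeq (GRCh38.p14) gave a window for 9 of the 10 genes. The element was found in ATF3, CEBPG and CHAC1, 3 of 9, beside 3.61% of all 35116 promoter windows and 4.45% of 27305 genes. The cyclic AMP response element TGACGTCA, a palindrome that other ATF and CREB proteins also bind, was found in PPP1R15A alone of the 9, beside 1.85% of all windows. In the following lines, written 5′ to 3′ on the plus strand, capitals mark the first 8 letters of the element in ATF3 and CEBPG, its reverse complement in CHAC1, and the whole element in PPP1R15A.
ATF3 (chr1:212565157-212565333, plus strand): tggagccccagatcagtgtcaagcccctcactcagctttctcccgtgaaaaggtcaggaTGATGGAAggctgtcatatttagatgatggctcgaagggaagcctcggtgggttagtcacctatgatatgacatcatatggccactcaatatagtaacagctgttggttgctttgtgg
CEBPG (chr19:33373896-33374112, plus strand): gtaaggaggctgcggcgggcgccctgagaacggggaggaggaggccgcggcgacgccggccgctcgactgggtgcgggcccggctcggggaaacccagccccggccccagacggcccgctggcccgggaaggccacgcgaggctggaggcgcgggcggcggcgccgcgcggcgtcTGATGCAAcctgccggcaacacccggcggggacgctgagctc
PPP1R15A (chr19:48872171-48872391, plus strand): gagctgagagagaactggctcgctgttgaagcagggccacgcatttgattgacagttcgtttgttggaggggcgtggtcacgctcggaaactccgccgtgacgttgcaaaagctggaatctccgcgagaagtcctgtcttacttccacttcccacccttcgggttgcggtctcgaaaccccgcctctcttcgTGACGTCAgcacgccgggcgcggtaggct
CHAC1 (chr15:40953252-40953279, plus strand): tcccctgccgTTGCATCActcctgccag
The stretches lie outside annotated exons, except that the CHAC1 match lies within an exon of another CHAC1 transcript. Those of ATF3 and PPP1R15A end just before the gene spans given later. Those of CEBPG and CHAC1 lie inside the spans, because the RefSeq start used for the window is further downstream. Counted from the RefSeq start, the matches began 191 bases before it in ATF3, 42 in CEBPG, 210 in CHAC1 and 58 in PPP1R15A. CEBPG and CHAC1 share the 9 letters TGATGCAAC, which 0.216% of all windows hold, whereas ATF3 reads TGATGGAAG. The endoplasmic reticulum stress element, a CCAAT box followed after 9 bases by CCACG, was in 0 of 9 core windows and 0.0769% of all windows. A match describes these letters only, and binding was not measured.

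The 6 libraries held between 13539959 and 19593759 reads, as estimated from the rounding steps of the deposited values. Values are normalised units, the deposited values after scaling between libraries. The epithelial keratins KRT8 and KRT18 averaged 11786 and 20262 units in salinomycin libraries and 69665 and 84124 in untreated ones. A further keratin, KRT19, was higher with salinomycin, at 3164 units, against 1898 untreated. The epithelial genes CDH1 and EPCAM averaged 540 and 19 units with salinomycin and 2306 and 46.7 untreated. The aldo-keto reductase AKR1B10, abundant in A549, averaged 5158 units in salinomycin and 90927 in untreated libraries. The further A549 markers ALDH3A1, AKR1C1 and NQO1 averaged 3097, 2320 and 5055 units with salinomycin and 83791, 20613 and 36038 untreated. The lung factor NKX2-1 averaged 15.6 units with salinomycin and 0 untreated, and the surfactant genes SFTPB and SFTPC stayed under 1 unit on average in both groups. Of 10 markers of other cell types, 6 had a row in the table, and these summed to between 408 and 455 units in salinomycin and between 560 and 797 in untreated libraries, mostly from the collagen gene COL1A1 (416 units on average with salinomycin, 667 untreated). Mitochondrially encoded genes took 0.316% ± 0.0317 of all values in salinomycin and 3.59% ± 0.192 in untreated libraries (SD, n = 3 each). These differences in KRT8, KRT18, KRT19, CDH1, EPCAM, AKR1B10, the further A549 markers, COL1A1 and the mitochondrial share run with every result given here. Their part in those results was not tested.

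With salinomycin, 8 of the 10 core genes rose, 1 fell and 1 did not pass the test (limma, adjusted p under 0.05 over all tested genes). Among all 13088 tested genes 41.6% rose and 40.2% fell, 81.9% in all, so that a call by itself was common in this comparison. The groups did not overlap for 9 of the 10 core genes, 8 with all salinomycin libraries above and 1 with all below, beside 83.0% of tested genes (42.4% above and 40.6% below). The median log2 change of the 10 genes was 2.18, beside 0.022 over all tested genes. A log2 change of 1 or more was seen in 7 of 10, beside 16.8% of tested genes, and one of 3 or more in 5 of 10, beside 2.07%. The 10 genes together took 0.223% ± 0.00623 of all values in salinomycin libraries and 0.0611% ± 0.00155 in untreated ones, a ratio of 3.64 (exact permutation p = 0.1, two-sided, the smallest that 3 against 3 can give).

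**Figure D1:**
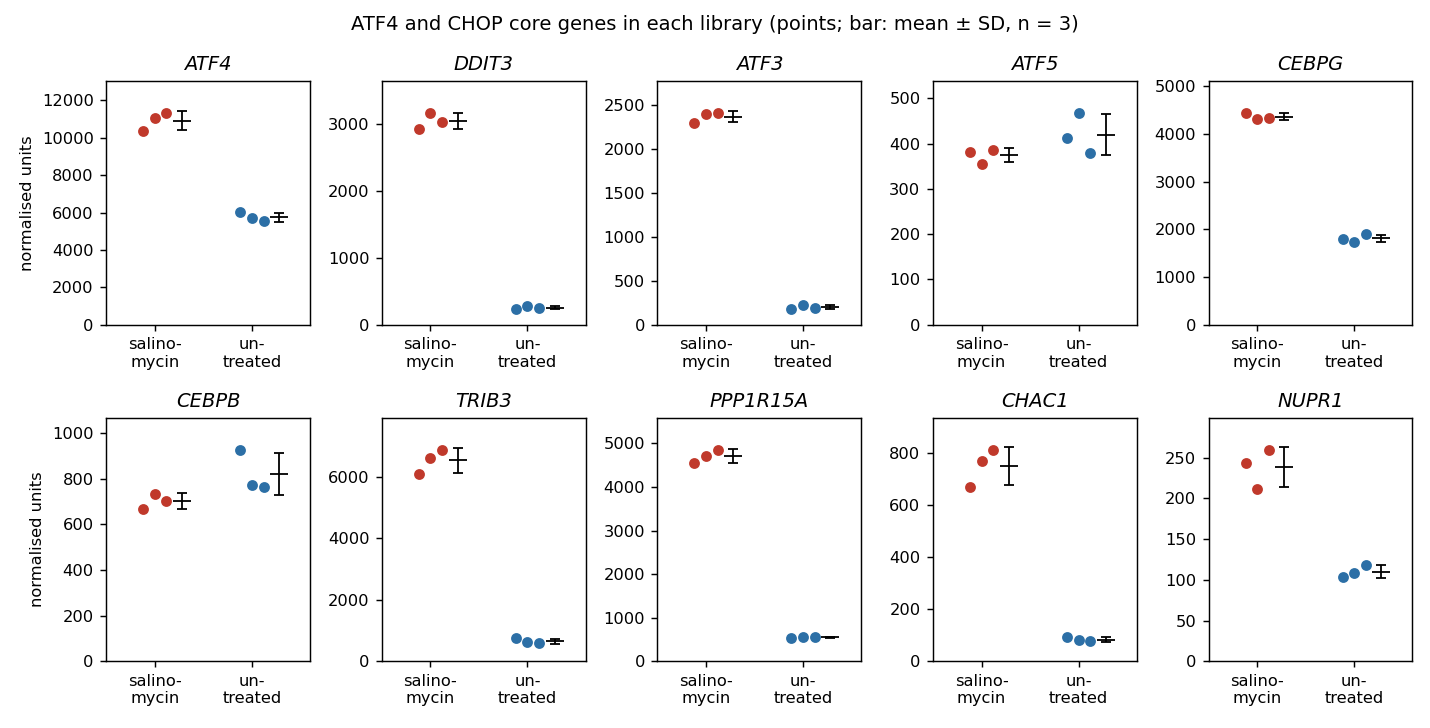
Each panel plots 1 core gene, with normalised units on a linear axis from 0 and 1 point per library; the bar is the mean ± SD of 3. All salinomycin points lie above all untreated points in 8 panels, below them for CEBPB, and among them for ATF5.

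ATF4, the factor that begins the programme, had 10348, 11075 and 11338 normalised units in the 3 salinomycin libraries and 6015, 5704 and 5524 in the 3 untreated ones. The groups did not overlap, and the salinomycin libraries were all close to each other. The transcript was 1.9-fold higher with salinomycin (log2 change 0.93 ± 0.054 SE, limma adjusted p = 1.00e-08). Of all tested genes 18.7% had a larger rise. The gene lies at chr22:39519695-39522685 (plus strand, GRCh38), and the annotation names 4 ATF4 pseudogenes, none with a row in the table, so reads from them may be counted with ATF4 or lost.

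DDIT3, whose product CHOP is a partner of ATF4 and is known for promoting cell death under lasting stress, had 2926, 3171 and 3039 units with salinomycin, against 235, 282 and 252 in untreated libraries. The lowest salinomycin library was many times the highest untreated one. The rise was 11.9-fold (log2 change 3.57 ± 0.072 SE, limma adjusted p = 2.17e-12), and 1.3% of tested genes rose more. DDIT3 lies at chr12:57516588-57521737 (minus strand), where MARS1, the methionyl-tRNA synthetase, overlaps 982 bases on the opposite strand and MBD6 overlaps 1028. On the same strand AC022506.1, annotated as coding and with no row in the table, overlaps 2769 bases. MARS1 averaged 9002 units with salinomycin and 4252 untreated, and MBD6 averaged 1025 with salinomycin and 927 untreated. Whether the counting used strand is not given in the sources used here, so reads of the shared stretches cannot be told apart.

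ATF3, a stress-induced factor that can repress as well as activate, had 2296, 2391 and 2407 units with salinomycin, against 178, 220 and 191 untreated. It changed most of the 10 genes, by 12-fold (log2 change 3.59 ± 0.078 SE, limma adjusted p = 4.01e-12), although the difference from DDIT3 was smaller than either standard error. Its untreated profile followed that of DDIT3 as well, with untreated replicate 2 highest in both. Over the 6 libraries ATF3 and DDIT3 were the closest pair of the core, at a Euclidean distance of 0.066 between centred log2 profiles. ATF3 lies at chr1:212565334-212620777 (plus strand).

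CEBPG, a small C/EBP protein that forms dimers with ATF4, had 4446, 4314 and 4333 units with salinomycin, against 1788, 1745 and 1893 untreated. It was 2.41-fold higher (log2 change 1.27 ± 0.049 SE, limma adjusted p = 2.95e-10). The gene, with its TGATGCAAC element shown earlier, lies at chr19:33373330-33382686 (plus strand). CEBPB, the other C/EBP partner and a regulator of the secretory programme of senescent cells, did not rise. It had 667, 734 and 704 units with salinomycin, against 928, 773 and 764 untreated, so that all salinomycin libraries were lower by a narrow margin. CEBPB fell by 0.22 on the log2 scale (SE 0.080, limma adjusted p = 0.0219), to 0.857 of the untreated level.

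The fall of CEBPB rests on single libraries and on the scaling. Without salinomycin replicate 1 the log2 change was -0.19 (limma adjusted p = 0.0702), without untreated replicate 1 it was -0.13 (p = 0.105), and on the authors' scaling it was -0.03 (p = 0.757). CEBPB lies at chr20:50190734-50192689 (plus strand) and shares 765 bases with an antisense RNA that had no row in the table.

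ATF5, which like ATF4 is translated under stress and is known as a sensor of mitochondrial protein stress, had 381, 356 and 385 units with salinomycin and 413, 468 and 380 untreated. The groups overlapped, and untreated replicate 3 lay inside the salinomycin range. The log2 difference was -0.16 (95% interval -0.35 to 0.03, limma adjusted p = 0.099), an interval that leaves out rises like those of ATF4 and ATF3. Without untreated replicate 3 the value was -0.23 (limma adjusted p = 0.0296), on upper-quartile scaling -0.25 (p = 0.0199), and on the authors' scaling 0.03 (p = 0.739). Under all 3 scalings shown ATF5 lay below the median of all tested genes, which was 0.022 with the main scaling, -0.063 with upper-quartile and 0.217 with the authors' scaling. The gene, at chr19:49928702-49933935 (plus strand), shares 1062 bases with NUP62 on the opposite strand, which averaged 1261 units with salinomycin and 1093 untreated. AC011452.1, annotated as coding on that strand with no row in the table, shares 5234 bases, and IL4I1, at 0.625 units with salinomycin and 1.07 untreated, shares 838.

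TRIB3, a pseudokinase that is induced by ATF4 and CHOP and feeds back on both, had 6087, 6627 and 6887 units with salinomycin, against 746, 629 and 599 untreated. It rose 9.95-fold (log2 change 3.31 ± 0.079 SE, limma adjusted p = 7.48e-12). Salinomycin replicate 1 was the lowest of its group and untreated replicate 1 the highest of its own, and the groups stayed far apart. TRIB3 lies at chr20:362835-397559 (plus strand).

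PPP1R15A, also called GADD34, guides protein phosphatase 1 to eIF2 and so reverses the block on translation. It had 4545, 4703 and 4858 units with salinomycin, against 535, 561 and 555 untreated, and the replicates of each group differed little. The rise was 8.53-fold (log2 change 3.09 ± 0.051 SE, limma adjusted p = 5.62e-13). PPP1R15A lies at chr19:48872392-48876057 (plus strand). Its constitutive relative PPP1R15B, which does the same without stress, averaged 3339 ± 191 units with salinomycin and 1591 ± 137 untreated (SD, n = 3 each), a log2 change of 1.07.

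CHAC1, which breaks down glutathione, had 669, 767 and 812 units with salinomycin, against 93.0, 80.9 and 76.8 untreated. It rose 8.88-fold (log2 change 3.15 ± 0.104 SE, limma adjusted p = 8.30e-11). This is the gene, at chr15:40952962-40956519 (plus strand), that carries the reverse-strand TGATGCAAC. NUPR1, a small stress-induced chromatin protein, had 243, 212 and 260 units with salinomycin and 103, 109 and 118 untreated. The groups did not overlap, and the rise was 2.16-fold (log2 change 1.11 ± 0.111 SE, limma adjusted p = 1.60e-06). NUPR1 lies at chr16:28532708-28539174 (minus strand).

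**Figure D2:**
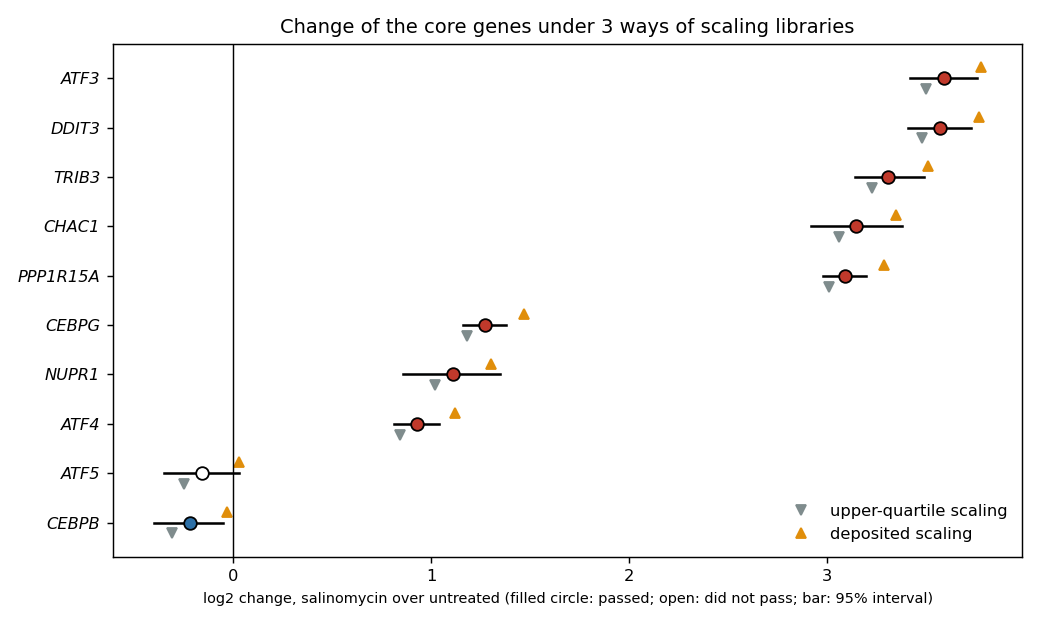
Log2 change of salinomycin over untreated for each core gene, with its 95% interval; triangles give the value on upper-quartile scaling and on the authors' scaling. Genes fall into 5 with a change above 3, 3 between 0.93 and 1.27, and 2 near 0, where the authors' scaling puts ATF5 at 0.03 and CEBPB at -0.03.

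The authors' deposited table gave the same grouping on their own scaling. In that table the log2 fold changes of ATF3, DDIT3, TRIB3, CHAC1 and PPP1R15A lay between 3.29 and 3.78, and ATF4, NUPR1 and CEBPG were at 1.12, 1.31 and 1.47. ATF5 (0.0278, adjusted p = 0.837) and CEBPB (-0.0304, adjusted p = 0.785) passed in neither direction in the authors' deposited table. The authors called 41.9% of 15107 genes higher and 28.1% lower.

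Gene length has to be taken out before the levels of different genes are compared. Per kilobase of annotated exons, ATF4 led both groups, at 4344 ± 204 units per kilobase with salinomycin and 2286 ± 98.8 untreated (SD, n = 3 each). Below it the order differed between the groups. With salinomycin DDIT3 came next at 2330 ± 93.9, then TRIB3 at 1903 ± 119, PPP1R15A at 1520 ± 50.6, CEBPG at 989 ± 16.1, ATF3 at 585 ± 14.8, CHAC1 at 364 ± 35.4, CEBPB at 359 ± 17.3, ATF5 at 127 ± 5.22 and NUPR1 at 42 ± 4.31 units per kilobase. The ranges of CHAC1 (325 to 395) and CEBPB (341 to 375) overlapped, and those of the other neighbours in this order did not.

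In untreated cells CEBPB (420 ± 46.9 units per kilobase) and CEBPG (410 ± 17.3) came next, with overlapping ranges. DDIT3 (196 ± 18.3), TRIB3 (192 ± 22.7) and PPP1R15A (178 ± 4.33) followed, each overlapping the next. ATF5 was at 142 ± 15.1, ATF3 at 48.6 ± 5.31, CHAC1 at 40.6 ± 4.08 and NUPR1 at 19.4 ± 1.4, and of these pairs of neighbours only ATF3 and CHAC1 overlapped (44.2 to 54.5 and 37.3 to 45.2). With the length of the principal transcript in place of all exons, ATF3 (rank 5) passed CEBPG (rank 6) with salinomycin, and CEBPG passed CEBPB in untreated cells. The place of NUPR1 rests on an annotated exon length of 5.674 kilobases.

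**Figure D3:**
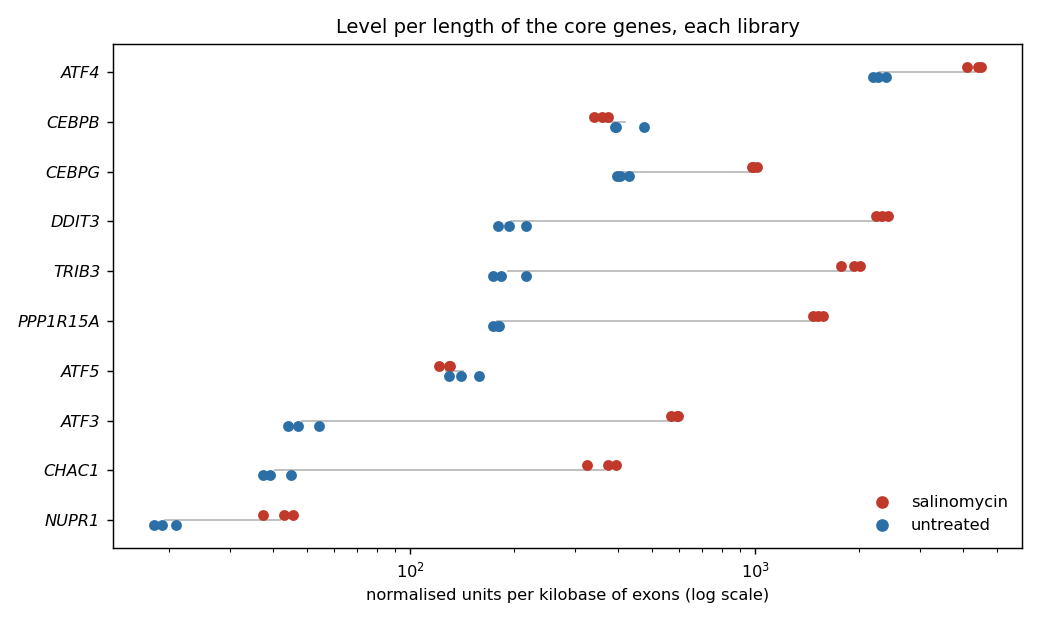
Level of each core gene in units per kilobase of exons on a log axis, 1 point per library, with genes in the order of their untreated mean. The salinomycin points of ATF3, CHAC1, DDIT3, TRIB3 and PPP1R15A lie far to the right of their untreated points, whereas those of CEBPB and ATF5 lie at or left of them.

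Ratios between genes of 1 library do not depend on how libraries are scaled to each other. There were 0.283, 0.286 and 0.268 DDIT3 units per ATF4 unit in the salinomycin libraries and 0.0392, 0.0496 and 0.0458 in the untreated ones. The ratio was higher in every salinomycin library than in any untreated one, with a log2 difference of 2.64. ATF3 per ATF4 was 0.212 to 0.222 with salinomycin and 0.0298 to 0.0388 untreated, a log2 difference of 2.66. Within the C/EBP pair, CEBPG per CEBPB was 5.87 to 6.66 with salinomycin and 1.93 to 2.48 untreated, a log2 difference of 1.49.

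The inducible and the constitutive eIF2 phosphatase subunit also differed in balance, as a ratio of units that takes no account of gene length. PPP1R15A per PPP1R15B was 1.28 to 1.52 in salinomycin libraries and 0.318 to 0.366 in untreated ones, a log2 difference of 2.02. TRIB3 per DDIT3 was 2.08 to 2.27 with salinomycin and 2.23 to 3.17 untreated, which overlap (log2 difference -0.25). Over the 5 pairs compared, the exact permutation p was 0.1 for the 4 ratios without overlap, the smallest possible with 3 against 3, and 0.2 for TRIB3 per DDIT3 (two-sided; adjusted 0.125 and 0.2).

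**Figure D4:**
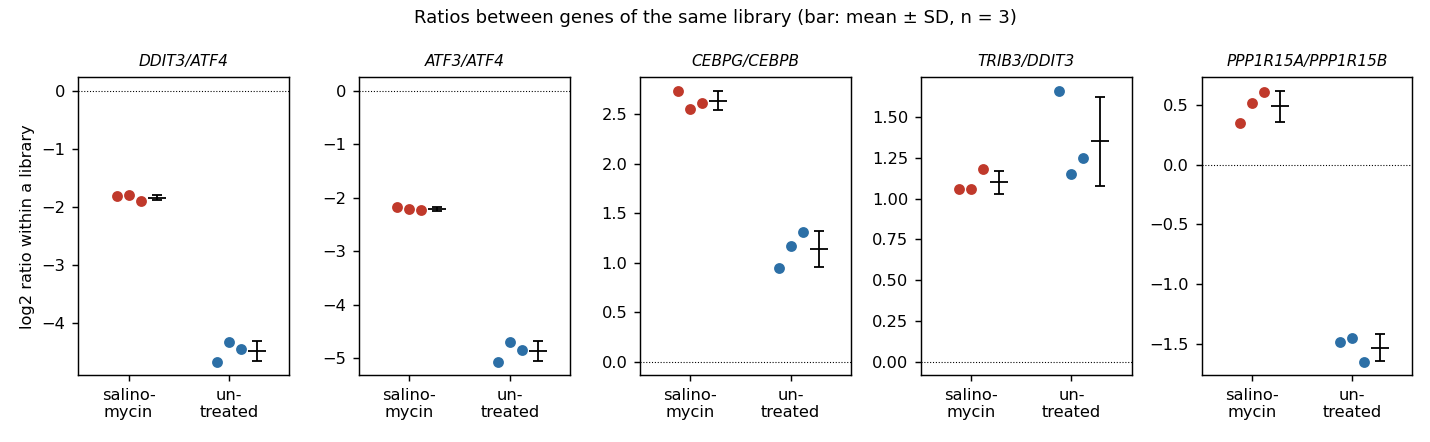
Log2 ratio of 2 genes within each library, on normalised units, 1 point per library with mean ± SD of 3; each panel has its own axis and the dotted line, where it falls in range, marks equal values. The salinomycin points lie above the untreated points in 4 panels, and for TRIB3 over DDIT3 the groups overlap.

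Profiles over the 6 libraries placed other genes beside ATF4 and DDIT3. The closest tested genes to ATF4 were NIT1 (an amidase, log2 change 0.90, distance 0.05), SLC1A5 (a glutamine transporter, 0.89, 0.063) and TRMT112 (a methyltransferase partner, 0.91, 0.065). ATF4 had 1931 tested genes within a distance of 0.5, so its profile was a common one. DDIT3 had 32, and its closest were ALDOC (an aldolase, log2 change 3.62, distance 0.177), HSPA5 (the endoplasmic reticulum chaperone BiP, 3.54, 0.197) and PPM1K (a mitochondrial phosphatase, 3.55, 0.199). With 2 groups of 3 libraries such distances mostly reflect the size of the change.

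Upstream of ATF4, the eIF2 kinases did not move together. EIF2AK3, which encodes PERK, the kinase of the endoplasmic reticulum, had 2693, 2763 and 2436 units with salinomycin, against 553, 589 and 576 untreated, a 4.58-fold rise (log2 change 2.20 ± 0.061 SE, limma adjusted p = 2.26e-11). EIF2AK1 (HRI, the heme and mitochondrial stress kinase) and EIF2AK4 (GCN2, the amino acid sensor) had log2 rises of 0.76 and 0.37. EIF2AK2 (PKR, the kinase for double-stranded RNA) fell by 0.78 (SE 0.081, limma adjusted p = 2.15e-06), with 1578, 1399 and 1335 units in salinomycin libraries and 2196, 2506 and 2691 in untreated ones.

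The eIF2 arm held 16 genes, of which 13 rose and 2 fell, beside 41.6% and 40.2% of all tested genes, and the median log2 change was 0.71. The largest rises after EIF2AK3 were EIF2B1 (1.57) and EIF2B2 (1.17), subunits of the exchange factor that recycles eIF2. OMA1, the mitochondrial protease that releases DELE1 to HRI, averaged 83.1 units with salinomycin and 115 untreated. Its log2 change of -0.46 (limma adjusted p = 0.0156) did not pass without salinomycin replicate 2 (-0.36, adjusted p = 0.0632), without untreated replicate 3 (-0.39, p = 0.0643) or on the authors' scaling (-0.27, p = 0.131). DELE1 itself had a log2 rise of 0.73.

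Downstream, all 17 amino acid genes passed the test, beside 81.9% of all tested genes. They were 12 higher and 5 lower, where 41.6% of all tested genes were higher and 40.2% lower, and the median log2 change was 0.90. The largest rises were SLC1A4 (a serine and alanine transporter, 3318 units with salinomycin and 363 untreated, 9.11-fold), ASNS (asparagine synthetase) and CTH (the cystathionine enzyme of cysteine synthesis, 1.91). ASNS had few reads, with 84.2, 59.1 and 78.9 units with salinomycin and 7.57, 9.58 and 19.2 untreated, a log2 change of 2.60 ± 0.3 SE. The genes that fell included both chains of the cystine exchanger, SLC7A11 (1307 units with salinomycin and 4089 untreated, log2 change -1.64) and SLC3A2 (-0.71), and the leucine transporter SLC7A5 (-0.66), whose partner is also SLC3A2. PSPH (-0.44) and SLC38A2 (-0.55) were the others.

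Of 13 tRNA synthetase and tRNA export genes linked to ATF4, 11 rose, with a median of 1.08. WARS1 (2.03) and XPOT (1.62) changed most, followed by SARS1 and GARS1 at 1.28 each. TARS1 had a log2 change of -0.17 (limma adjusted p = 0.00416), which was 0.03 on the authors' scaling. The 8 other cytosolic synthetase genes were 6 higher and 2 lower, with a median of 0.75. Both lists stand beside 41.6% of all tested genes higher and 40.2% lower. FARSA (1.27), FARSB (0.88) and HARS1 (0.81) rose most, and QARS1 (-0.32) was among those that fell. The difference between the 2 lists was not tested.

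The list of other ATF4 or CHOP targets held 20 genes, 16 of them higher and 2 lower, beside 41.6% and 40.2% of all tested genes, and its median was 1.06. INHBE, a subunit of activin E, had 2631, 2792 and 2912 units with salinomycin, against 18.4, 10.6 and 19.2 untreated, a 167-fold difference (log2 change 7.39 ± 0.175 SE, limma adjusted p = 6.95e-12). NIBAN1, a stress-induced protein, averaged 2369 units with salinomycin and 28.9 untreated (log2 change 6.31). FGF21, a stress hormone, had 22.2, 42.2 and 23.5 units with salinomycin and 0 in each untreated library. Taking 3 reads over the untreated group as its floor, it was at least 24.8-fold higher with salinomycin. Setting FGF21 to that bound left the median at 1.06. The 2 that fell were CARHSP1 (232 units with salinomycin and 1759 untreated, log2 change -2.92) and JDP2 (281 units with salinomycin and 515 untreated, -0.87), a bZIP repressor related to ATF3.

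Cell death genes in that list rose by different amounts. HRK, a BH3-only death gene, averaged 155 units with salinomycin and 9.62 untreated (log2 change 3.95), and BBC3 (PUMA) had 523, 563 and 561 units with salinomycin and 330, 228 and 280 untreated (0.99). TNFRSF10B, the death receptor DR5, averaged 10440 units with salinomycin and 6308 untreated (0.73).

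Of 18 other C/EBP and CREB-ATF genes of the bZIP family, 9 rose, 6 fell and 3 passed in neither direction, and the median was 0.16. These counts are near the shares of all tested genes, 41.6% higher and 40.2% lower. CREB5 (log2 change 2.54) and CREB3 (2.32), a membrane-bound factor of the secretory pathway, rose most, and ATF6, the membrane-bound factor of the unfolded protein response, rose by 1.57. CREB3L1 (-2.20), BATF2 (-1.78) and CEBPD (-1.71) fell most. CEBPD, a C/EBP factor of inflammation, had 56.5, 57.2 and 53.5 units with salinomycin and 208, 181 and 169 untreated.

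Targets of ATF6 and XBP1, the parallel arms of the unfolded protein response, were 11 higher and 1 lower of 13, beside 41.6% and 40.2% of all tested genes, with a median of 1.11. HSPA5 averaged 120605 ± 2773 units with salinomycin and 10342 ± 491 untreated (SD, n = 3 each), a log2 change of 3.54, close to that of DDIT3. DERL3, which helps draw misfolded proteins out of the endoplasmic reticulum, had 127, 154 and 156 units with salinomycin and 2.16, 2.13 and 1.07 untreated, the last from 5 reads in all. SYVN1, a ubiquitin ligase of that pathway, rose by 1.69, and PDIA6, a disulfide isomerase, fell by 0.78.

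**Figure D5:**
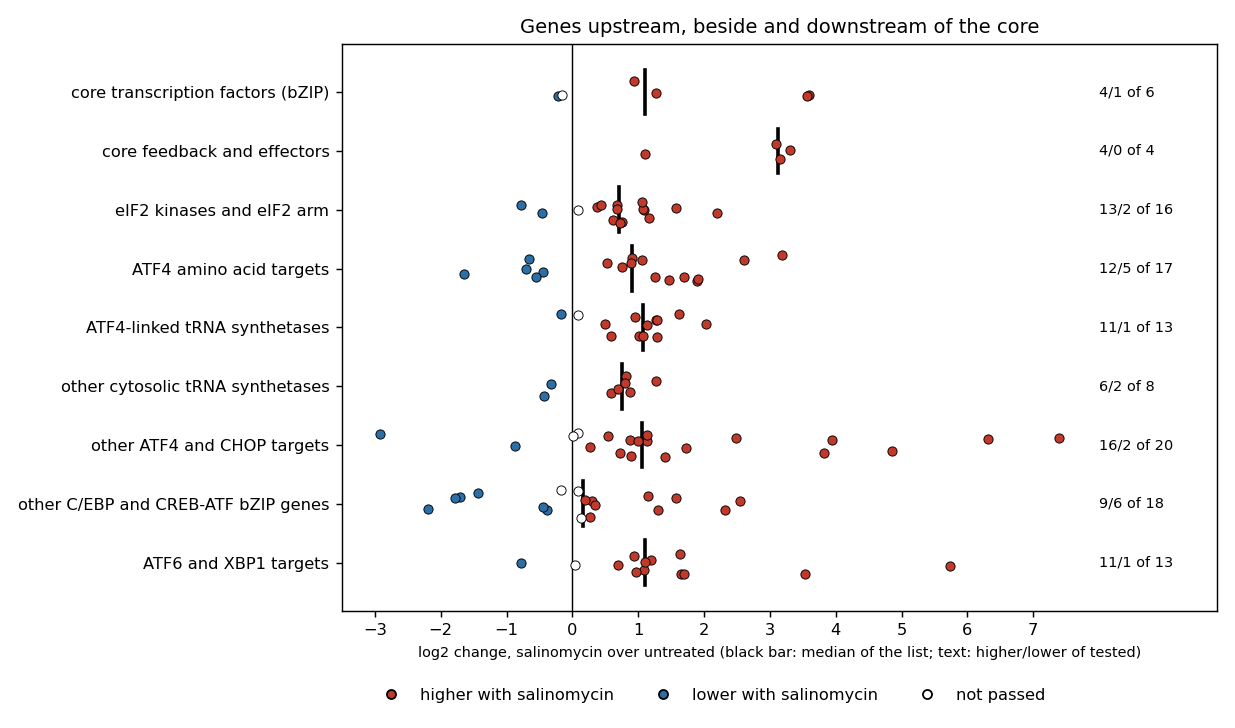
Log2 change of salinomycin over untreated for every gene of the core and of 7 related lists, 1 point per gene, with the black bar at the list's median and the count of higher and lower genes at the right. Medians range from 0.16 for the other bZIP genes to 3.12 for the 4 feedback genes and effectors, and INHBE is the rightmost point at 7.39.

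The authors' deposited gene set table named the pathway in 10 sets, of which 6 passed with a positive normalised enrichment score and 0 with a negative one. How many of all its sets passed was not counted, so 6 of 10 has no background here and is not read as particular to the pathway. The PERK set scored 2.109 (adjusted p = 9.06e-05) and the HRI set 2.068 (adjusted p = 1.81e-04) in the authors' deposited table. Of the 4 sets that did not pass in the authors' deposited table, the GCN2 amino acid set scored 1.155 (adjusted p = 0.425) and a set of stress genes acting through CHOP 1.403 (adjusted p = 0.235). The others, a CHOP motif set and a set labelled "ATF4 targets dn", scored -1.223 (adjusted p = 0.183) and -1.317 (adjusted p = 0.152) in the authors' deposited table. The label does not say in which experiment the genes of the latter set were lowered, so the sign of its score is not interpreted. These scores come from the same libraries and add no independent sample. Genes that the sets share with the core or with each other were not examined, so the scores do not tell the kinases apart.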

How the data were processed

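Gene-level RNA-seq values of 6 A549 libraries were analysed. Per the submitters' processing notes the genome build was GRCh38; aligner, counter and annotation are not given in the sources used here. Signal values, as deposited, are whole numbers rescaled by the authors, with totals within 0.693% of each other and 1 as the lowest value. Per the file headers the table also holds log10 means, a log2 fold change, a linear fold ratio, a test score and p-values, and a second table holds gene set scores.

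The offset of 1 was subtracted and values were divided by TMM factors (30% and 5% trimming), which gives the normalised units. Genes that reached 10 in 3 or more libraries (13088) entered a limma 3.58.1 fit (R 4.3.3) of log2(value + 1) with a trend and Benjamini-Hochberg adjustment, and called at an adjusted p under 0.05. Folds are on that scale. The fit was tested on simulated data in which few genes changed, unlike here, so that test does not bear on the scaling. The design was not taken from a stated method. Reads were estimated from rounding steps and cover counting error only; the chi-square per gene between replicates was 2.86 to 6.73, above counting noise, and each library counts as 1 replicate, as labelled. The limma p-values set the difference between groups against the spread between these replicates, moderated over all tested genes.

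Members and gene lists were chosen with earlier results of these data known. Named in each list were the 3 largest called changes and up to 3 genes against the majority, plus the 3 nearest profiles of ATF4 and of DDIT3 and PPP1R15B; other named genes (EIF2AK1, EIF2AK4, DELE1, PSPH, SLC38A2, HRK, BBC3, TNFRSF10B, GARS1 and ATF6) were chosen after their values were seen. Gene coordinates are from GENCODE release 29. Promoter windows are from RefSeq, and NUPR1 had no window matched. Some genes that this rule would name are not reported here.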

Additional observations from a re-analysis of the deposited data

How the results depend on the processing

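The rises of 8 core genes passed under every scaling, filter, pseudocount, voom fit and left-out library. ATF5 had a log2 change of -0.25 with upper-quartile scaling and 0.03 with the authors' scaling, where CEBPB was at -0.03 and TARS1 at 0.03. Leaving out 1 library gave -0.23 to -0.08 for ATF5 and -0.27 to -0.13 for CEBPB. Core genes called lower were then 0 to 2, against 1, and were 2 with upper-quartile and 0 with the authors' scaling. Genes of the eIF2 arm called lower were 1 to 2 with a library left out and 1 with the authors' scaling, against 2, and ATF4-linked synthetases called lower were 0 there, against 1. The cause of these moves was not tested; the median of all genes was 0.217 with the authors' scaling. Over all genes, 5451 were called higher and 5266 lower, and with the authors' scaling 6490 and 4325. The exact 9-letter element, an alternative added after seeing the data like the principal transcript length, was in 2 core genes in place of 3. Same-numbered replicates did not deviate together (correlations -0.172, -0.013 and -0.033), and no library correlated best with its own number. The replicate block gave 5325 genes higher and 5130 lower, with 8 core genes higher and 1 lower. The voom fit used the recovered reads, which are estimates, and other count models on them were not run. Few untreated reads limit the folds of genes such as FGF21 (0 reads), DERL3 (5 reads), HRK (26 reads) and INHBE (42 reads).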
